A study of Rattus norvegicus with 10 samples.

Results

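The enzymes described here carry glucose through glycolysis to lactate, store it as glycogen and release it again, divert it into the pentose phosphate pathway, or use its triose phosphates for glycerol. The list held 38 rat genes, and each probe set of the array whose annotated symbol was one of them was read. Of the 38 genes, 36 had at least 1 probe set of their own, which gave 50 probe sets, and Gapdh was read only through 3 control probe sets. The only Pkm probe set is annotated with several genes and was not read, so 37 genes were described, beside 10411 genes with a probe set of their own on the whole array. The samples were 10 Affymetrix arrays of abdominal aorta RNA, 5 from Brown Norway (BN) rats and 5 from LOU rats, neither treated. The series concerns the inherited arterial and renal traits of the BN strain, and the comparison asks which aortic transcripts differ between it and LOU. For both strains the labels gave an age of 5 weeks, while the housing notes allow up to 18 weeks and the extraction notes also mention thoracic aorta. The labels do not say that each array came from a different rat, so the p-values measure only the spread between these arrays, which may be technical.

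Glycolysis splits glucose into pyruvate in the cytosol, and lactate dehydrogenase turns pyruvate into lactate while it regenerates NAD. Vascular smooth muscle is known for making much lactate even when oxygen is plentiful. Several steps are run by isoforms from separate genes, with one form typical of muscle, another of liver or nerve and another found widely. Glycogen is built by glycogenin, glycogen synthase and the branching enzyme, and it is broken down by phosphorylases that phosphorylase kinase switches on. In fat cells, glycerol phosphate made from glycolytic intermediates is the backbone of stored triglyceride, and the pentose phosphate pathway supplies NADPH for making fatty acids. The fat around the rodent aorta contains brown adipocytes.

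The signals are on a linear scale set by the submitters, and a probe set counted as above background on an array when it exceeded the level that 95% of the 45 bacterial controls stayed under there (21.2 to 49.2). Of the 50 probe sets, 39 were above background on all 10 arrays, 9 on some and 2 on none. Smooth muscle markers were all above background on every array, 10 of 10, with Acta2, the smooth muscle actin, between 9960 and 14561. The smooth muscle mean on the centred log2 scale still ran from -0.46 on LOU array 1 to 0.48 on BN array 5. It was 0.13 in BN and -0.13 in LOU, with overlap of arrays. Markers of other cell types also varied between arrays. The summed signal of 9 measured adipocyte markers ran from 3568 to 18369.8 in BN and from 5217 to 22147 in LOU, with Lep above background on no array and Adipoq, Cidec and Retn not read through a probe set of their own. The sum of 6 brown adipocyte markers ran from 1985 to 18963 in BN and from 1237 to 10268 in LOU. On the centred log2 scale the brown list's mean was 0.60 ± 1.43 (SD, n = 5) in BN and -0.60 ± 0.93 (SD, n = 5) in LOU. BN array 3 stood apart, with a neuron marker sum of 17119 for 10 of 10 markers against 309 to 2284 elsewhere, the highest of those on LOU array 1. LOU array 1 also had the highest lymphocyte marker sum, 909 against 238 to 296 elsewhere (1 of 7 measured markers was above background on all arrays), and the highest macrophage sum, 2113 against 714 to 1039.1. Leaving out BN array 3, LOU array 1 or both moved some differences by over 1.5 times. For most genes described here where it did, the value without them follows. It does not for some differences near 0, among them those of Ugp2, Gyg1, Phka1, Pfkm and single probe sets of Pgm1 and Pfkfb2. A Pfkfb2 probe set above background on 1 array, not near 0, moved from -0.46 to -1.05 without both arrays. Another moved from -0.02 to -0.41. Without both arrays the differences of Ugp2, Gyg1 and a Phka1 probe set changed sign. Markers of 2 more cell types lay apart by strain: the Schwann cell sum (6 of 8 measured, 4 above background on all arrays) was 2640.1 to 5168 in BN and 2201 to 2917 in LOU, and the fibroblast sum (8 of 8, all above background) was 29796 to 42772 in BN and 37260.1 to 48163 in LOU. On the centred log2 scale the Schwann cell mean was 0.49 in BN and -0.49 in LOU and the fibroblast mean was -0.31 in BN and 0.31 in LOU, with no overlap of arrays in either list. The striated muscle mean was 0.15 in BN and -0.15 in LOU and the erythroid cell mean was -0.33 in BN and 0.33 in LOU, with overlap of arrays in both lists. The part of these cell types in the strain values below was not tested. The RNA of fewer cells of a type and of less RNA per cell cannot be told apart in such tissue samples.

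No probe set of the list passed the test between the strains, yet most lay on the BN side. Of the 50 probe sets, 0 were higher and 0 lower in BN at an adjusted p under 0.05 (limma, Benjamini-Hochberg over 15866 probe sets), where 0.246% of all probe sets were called higher and 0.542% lower. At an unadjusted p under 0.05, 12 were higher and 0 lower in BN, against 5.16% and 8.09% of all probe sets. The log2 difference, BN minus LOU, was above 0 for 38 of the 50 (76.0%) and for 46.5% of all probe sets, and its median was 0.28 against -0.03. Without BN array 3 and LOU array 1, the median was 0.38 and both counts were again 0. For the 39 probe sets above background on all arrays the differences ran from -0.42 to 0.99. On simulated arrays with known changes, this fit recovered 4.8% of changes of log2 0.5 and 41.4% of changes of log2 1. Counts of 0 therefore do not show that the strains are equal. The lowest and highest of all 50, -0.46 and 2.73, were those of a Pfkfb2 probe set above background on 1 array and a Tkt probe set above it on 5, and have no firm size. Strains did not overlap for 1 of the 50, with BN higher, against 1.41% of all probe sets in that direction and 4.18% in either. The plot of the differences by enzyme group shows medians of 0.58 for the hexokinases and upper glycolysis, 0.34 for lower glycolysis, 0.88 for the pentose phosphate enzymes and 0.60 for Fbp2 and the glycerol phosphate dehydrogenases. The other groups had medians of 0.09 (fructose 2,6-bisphosphate enzymes), -0.01 (glycogen synthesis) and 0.17 (glycogen breakdown).

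**Figure D1:**
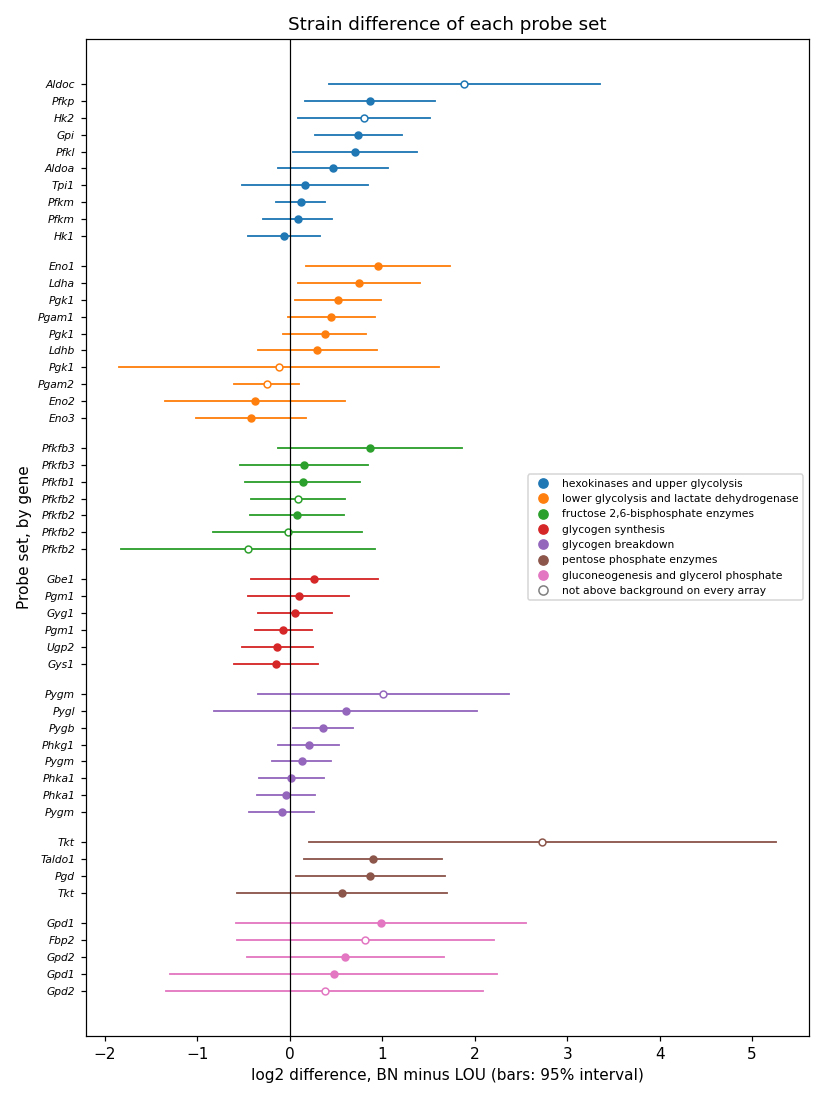
Log2 difference between BN and LOU (x axis, points, with 95% intervals as bars) for each of the 50 probe sets, labelled by gene and coloured by enzyme group; open points were not above background on all 10 arrays. Of the 50 points, 38 lie right of 0, and the widest interval belongs to the dimmer Tkt probe set.

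In the upper steps of glycolysis, 9 of 10 probe sets had a positive difference, 5 of them at an unadjusted p under 0.05, and none passed the adjusted test. Gpi, glucose-6-phosphate isomerase, had the smallest adjusted p of the list and is described for that reason, after its values were seen. Its signal was 2108, 2672, 1801, 1633 and 1199 on BN arrays 1 to 5 and 1385, 982, 1009, 986 and 1127 on LOU arrays 1 to 5. BN arrays 1 to 4 lay above every LOU array, and BN array 5 lay among them. The means were 1883 ± 549.9 (SD, n = 5) in BN and 1098 ± 171 (SD, n = 5) in LOU, a 1.67-fold ratio with a 95% interval of 1.21 to 2.31 and an adjusted p of 0.165.

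The hexokinases trap glucose in the cell as glucose 6-phosphate, and the 2 forms read here had unlike patterns. Hk1, the widespread form, read 342, 295, 531, 296 and 308 in BN and 348, 345, 331, 387 and 399 in LOU, arrays 1 to 5 in order. BN array 3 alone stood high, and the means of 354 ± 100.4 (SD, n = 5) in BN and 362 ± 29.3 (SD, n = 5) in LOU gave a log2 difference of -0.07 (-0.45 to 0.32), or -0.23 without BN array 3 and LOU array 1. A control probe set at the 3′ end of Hk1 also gave a value below 0, -0.27 (exact permutation p = 0.190). Hk2, the insulin-responsive form of muscle and fat, read 59.6, 115, 61.4, 70.1 and 42.9 in BN and 64.6, 41.2, 36.5, 21.1 and 37.9 in LOU, arrays 1 to 5 in order. All LOU arrays but array 1 lay below the lowest BN array, and the log2 difference was 0.81 (0.09 to 1.52, adjusted p = 0.315), with LOU array 4 not above background.

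Phosphofructokinase commits sugar to glycolysis, and its liver, muscle and platelet forms come from Pfkl, Pfkm and Pfkp. Pfkl read 378, 371, 200.5, 263 and 165 in BN and 241, 163, 136, 100.5 and 199.9 in LOU, arrays 1 to 5 in order. BN arrays 1, 2 and 4 exceeded every LOU array, with a log2 difference of 0.70 (0.03 to 1.37, adjusted p = 0.355). Pfkm, the muscle form, read 434, 413, 472, 394 and 378 in BN and 415, 364, 423, 402 and 328 in LOU, arrays 1 to 5 in order. Both strains covered nearly one range, and its 2 probe sets gave 0.12 (-0.15 to 0.38) and 0.08 (-0.29 to 0.46). Pfkp read 350.1, 444, 845, 319.7 and 270.3 in BN and 354, 218, 209, 161 and 217 in LOU, arrays 1 to 5 in order, highest on BN array 3, the array with the high neuron markers. The Pfkp difference was 0.87 (0.16 to 1.57, adjusted p = 0.273) on all arrays and 0.60 (adjusted p = 0.341) without BN array 3.

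Aldolase cuts fructose 1,6-bisphosphate, Aldoa being the muscle and general form and Aldoc the form typical of brain. Aldoc was the only probe set of the list with no overlap between strains, at 171, 339.8, 948, 154 and 232 in BN and 150.4, 125, 17.4, 81.0 and 108 in LOU, arrays 1 to 5 in order. The highest value was again on BN array 3 and the lowest, on LOU array 3, was not above background. Its log2 difference was 1.89 (0.42 to 3.35, adjusted p = 0.252), and 1.46 (adjusted p = 0.360) without BN array 3. The part of the neuron markers in the Aldoc and Pfkp values was not tested. Aldoa read 8871, 8812, 5534, 6717 and 4626 in BN and 8396, 4758, 4622, 3378 and 4323 in LOU, arrays 1 to 5 in order, with LOU array 1 close to BN arrays 1 and 2 and a difference of 0.46 (-0.13 to 1.06, adjusted p = 0.499), or 0.73 without BN array 3 and LOU array 1. Tpi1, triose phosphate isomerase, ran from 516 to 1294 in BN and from 585 to 1430.3 in LOU, with a difference of 0.16 (-0.52 to 0.85), which was 0.08 without BN array 3 and 0.37 without LOU array 1.

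The widely expressed enzymes of lower glycolysis, Gapdh, Pgk1 (in the 2 probe sets above background), Pgam1, Eno1 and Ldha, had higher means in BN, as had Ldhb, none past the adjusted test. Eno3 and Eno2, the enolases typical of muscle and nerve, had log2 differences below 0 that did not pass either. Gapdh, glyceraldehyde 3-phosphate dehydrogenase, is a control gene on this array and stood outside the fit. Its 3′ control probe set read 6118, 7148, 4396, 4362 and 2930.2 on BN arrays 1 to 5 and 3369, 2600.0, 2706, 2609.6 and 2836 on LOU arrays 1 to 5. BN arrays 1 to 4 exceeded every LOU array and LOU was narrow in range, with means of 4991 ± 1652 (SD, n = 5) in BN and 2824 ± 319 (SD, n = 5) in LOU and a log2 difference of 0.76 (exact permutation p = 0.0159, two-sided). The 5′ and middle probe sets gave 0.80 (exact permutation p = 0.0317) and 0.70 (exact permutation p = 0.0397). Adjusted over the 6 control probe sets of Gapdh and Hk1, these exact permutation p-values were each 0.0794 and missed the threshold.

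Eno1, the widespread enolase, read 3974, 5744, 3352, 3123 and 1589 on BN arrays 1 to 5 and 2832, 1739, 1313, 1122 and 1929.5 on LOU arrays 1 to 5. The means were 3556 ± 1505 (SD, n = 5) in BN and 1787 ± 668 (SD, n = 5) in LOU, with a log2 difference of 0.95 (0.17 to 1.73, adjusted p = 0.276). BN arrays 1 to 4 exceeded every LOU array, while BN array 5 was below 3 of them. Eno2, the enolase of neurons, read 60.2, 48.2, 251, 47.5 and 44.8 in BN and 98.3, 114, 79.6, 80.3 and 80.1 in LOU, arrays 1 to 5 in order. BN array 3 stood far above the others, and the other BN arrays lay below every LOU array. The Eno2 difference was -0.38 (-1.35 to 0.60) on all arrays and -0.84 (adjusted p = 0.0632) without BN array 3. Eno3, the muscle enolase, read 76.6, 80.5, 95.9, 93.6 and 127 in BN and 76.7, 98.8, 211, 153 and 123 in LOU, arrays 1 to 5 in order, highest on LOU array 3 and with a difference of -0.42 (-1.01 to 0.17, adjusted p = 0.545).

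Ldha, the lactate dehydrogenase chain that favours lactate, read 2951, 4008, 2208, 1913 and 1295 in BN and 1836, 1502, 1139.6, 994 and 1542 in LOU, arrays 1 to 5 in order. BN arrays 1 to 4 exceeded every LOU array, and the log2 difference was 0.75 (0.09 to 1.41, adjusted p = 0.315). Ldhb, the heart chain, read 2853, 2986, 1713, 2262 and 1336 in BN and 2966, 1552, 1363, 1309 and 1918 in LOU, arrays 1 to 5 in order. LOU array 1 lay between BN arrays 1 and 2 there, and the difference was 0.30 (-0.35 to 0.94), or 0.49 without LOU array 1. Pgam1, phosphoglycerate mutase, read 3665, 3575, 3408, 3052 and 1898 in BN and 3039.5, 2137, 1867, 1944 and 2340.0 in LOU, arrays 1 to 5 in order, with 4 BN arrays above every LOU array and a difference of 0.45 (-0.02 to 0.92, adjusted p = 0.403). The muscle mutase Pgam2 was above background on no array, with signals of 2.6 to 4.5. Pgk1, phosphoglycerate kinase, had 3 probe sets. The 2 above background gave 0.52 (0.06 to 0.99, adjusted p = 0.317) and 0.37 (-0.08 to 0.83), and the third was above background on no array.

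**Figure D2:**
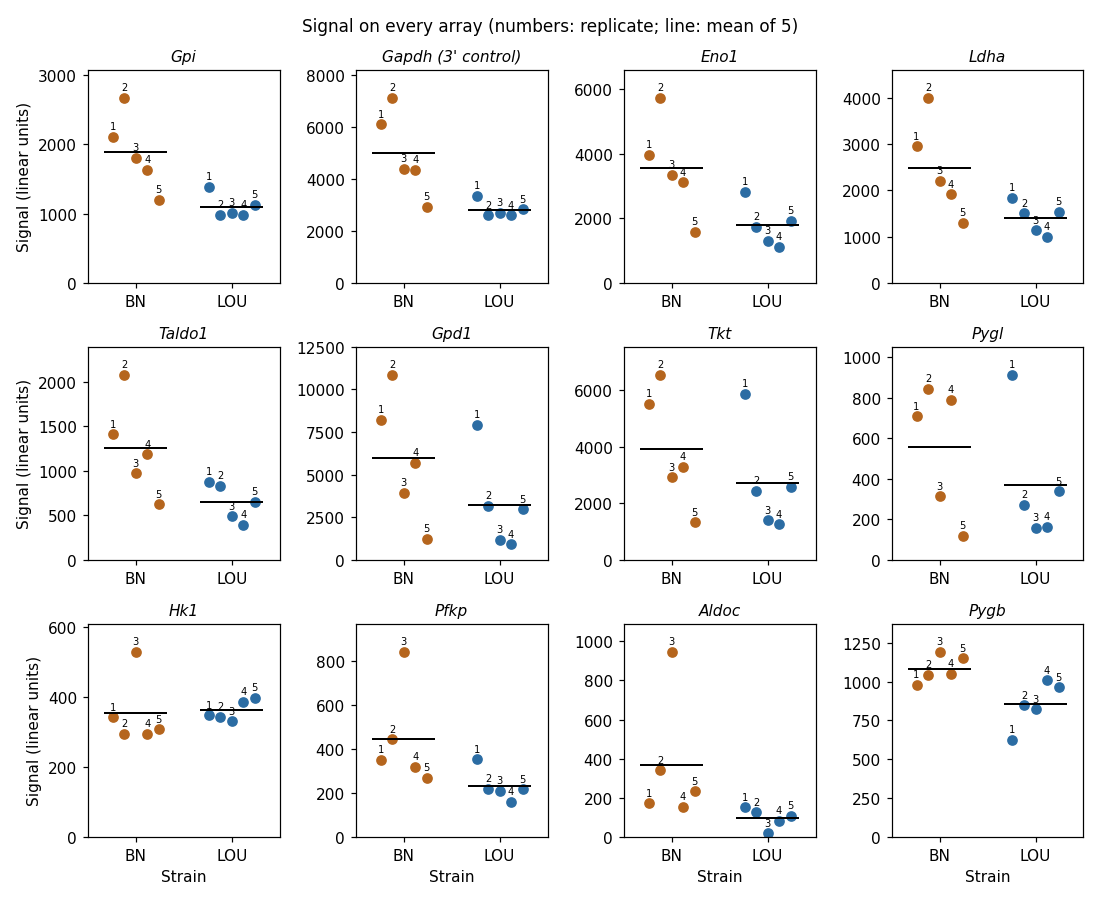
Signal (y axis, linear units from 0) of 12 genes on each array, BN left and LOU right, with the replicate number above each point and the mean of 5 arrays as a line. For Gpi, Gapdh, Eno1 and Ldha the BN points 1 to 4 lie above every LOU point; for Tkt and Pygl LOU array 1 lies with the high BN arrays; for Hk1, Pfkp and Aldoc BN array 3 is highest.

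Hypoxia-inducible factor is known to drive many glycolytic genes through sites with the core ACGTG or GCGTG. The 250 bases before 39 start sites of 35 of the genes were read from RefSeq on the GRCr8 assembly, which is of the BN strain, and the other 3 genes had no entry. The letters ACGTG stood on either strand in 16 of 39 (41.0%) of these windows and in 16.6% of 33469 windows of the same length. ACGTG or GCGTG stood in 64.1% against 36.7%, the GC box GGGCGG in 59.0% against 30.5%, and TATAAA in 10.3% against 12.9%, all on either strand. The E box CACGTG stood in 7.69% against 5.59%. Ldha, Gapdh and Pfkfb3 are shown because their windows hold ACGTG. Gpi is shown because its window holds none and its strain difference had the smallest p of the list. Capitals mark ACGTG on either strand (CACGT is its reverse), and CACGTG holds it on both. The windows lie at chr1:106507842-106508091 (Ldha, plus strand), chr4:159652468-159652717 (Gapdh, minus strand), chr17:71944683-71944932 (Pfkfb3, plus strand) and chr1:95993262-95993511 (Gpi, minus strand), printed 5′ to 3′ in each gene's direction.
Ldha: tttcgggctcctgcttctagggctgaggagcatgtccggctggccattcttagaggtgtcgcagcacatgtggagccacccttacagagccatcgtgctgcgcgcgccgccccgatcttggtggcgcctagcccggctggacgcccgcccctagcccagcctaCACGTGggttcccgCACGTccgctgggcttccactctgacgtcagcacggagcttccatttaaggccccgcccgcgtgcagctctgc
Gapdh: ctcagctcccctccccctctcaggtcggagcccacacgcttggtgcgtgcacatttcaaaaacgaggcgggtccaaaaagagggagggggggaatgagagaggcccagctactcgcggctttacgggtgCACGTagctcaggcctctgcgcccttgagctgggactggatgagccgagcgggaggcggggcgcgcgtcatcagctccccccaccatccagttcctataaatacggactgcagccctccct
Pfkfb3: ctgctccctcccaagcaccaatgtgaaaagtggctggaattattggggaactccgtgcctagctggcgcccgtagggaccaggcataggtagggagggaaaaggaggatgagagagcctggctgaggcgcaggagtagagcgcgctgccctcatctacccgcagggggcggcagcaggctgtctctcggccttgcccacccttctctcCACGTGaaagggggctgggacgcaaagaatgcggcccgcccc
Gpi: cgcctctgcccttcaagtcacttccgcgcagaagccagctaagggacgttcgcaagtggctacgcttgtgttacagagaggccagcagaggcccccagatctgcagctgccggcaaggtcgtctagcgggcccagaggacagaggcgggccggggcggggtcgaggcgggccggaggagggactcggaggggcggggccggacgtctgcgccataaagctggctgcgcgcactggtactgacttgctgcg
A match describes letters only and shows no binding, and no match says only that these letters are not in the window.

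The enzymes that make and remove fructose 2,6-bisphosphate, the activator of phosphofructokinase, had differences of -0.46 to 0.87 over 7 probe sets, none at an unadjusted p under 0.05. Pfkfb1, the liver and muscle form, read 311, 362, 205, 308 and 148 in BN and 364, 223, 205, 174 and 223 in LOU, arrays 1 to 5 in order. BN array 5 was lowest and LOU array 1 highest, and the difference was 0.14 (-0.48 to 0.76), or 0.22 without BN array 3 and 0.30 without LOU array 1. The 2 probe sets of Pfkfb3, the inducible form with the highest kinase activity, gave 0.87 (-0.13 to 1.86) and 0.15 (-0.54 to 0.85), the second being 0.31 without BN array 3. Of 4 Pfkfb2 probe sets, 1 was above background on all arrays and read 62.0 to 122, with a difference of 0.08 (-0.43 to 0.58).

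No glycogen synthesis gene passed the test, with 3 of 6 differences above 0 and all between -0.15 and 0.26. Gyg1, glycogenin, which primes the glycogen particle, read 727, 866, 869, 903 and 1167 in BN and 682, 724, 939.6, 1158 and 887 in LOU, arrays 1 to 5 in order. Its 2 highest values were on BN array 5 and LOU array 4, and the difference was 0.06 (-0.35 to 0.46). Gys1, the muscle glycogen synthase, gave -0.15 (-0.60 to 0.31), and Gbe1, the branching enzyme, gave 0.26 (-0.42 to 0.95), or 0.51 without LOU array 1. Ugp2, which makes UDP-glucose, gave -0.14 (-0.52 to 0.25). The 2 probe sets of Pgm1, phosphoglucomutase, gave -0.07 and 0.09, the second being 0.20 without LOU array 1. The intervals are wide enough to hold changes in either direction.

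Of the glycogen phosphorylases, the brain form Pygb had the smallest p and the liver form Pygl spread widely between arrays. Pygb read 981, 1046, 1194, 1053 and 1152 in BN and 628, 848, 823, 1009 and 964 in LOU, arrays 1 to 5 in order. All BN arrays lay above all LOU arrays except that LOU array 4 exceeded BN array 1. The means were 1085 ± 86.3 (SD, n = 5) in BN and 854 ± 149 (SD, n = 5) in LOU, with a log2 difference of 0.36 (0.03 to 0.69, adjusted p = 0.325), and 0.22 without BN array 3 and LOU array 1. Pygl read 708, 844, 314, 792 and 119 in BN and 915, 272, 157, 163 and 339 in LOU, arrays 1 to 5 in order. Its values spanned 7.71-fold, high on BN arrays 1, 2 and 4 and LOU array 1, and the strain difference of 0.61 had an interval of -0.82 to 2.03 and was 1.02 without LOU array 1.

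The muscle phosphorylase Pygm had 3 probe sets with overlapping intervals, at 1.01 (-0.34 to 2.37), 0.13 (-0.19 to 0.45) and -0.09 (-0.44 to 0.26). The probe set with the highest mean read 140.2, 140.5, 108, 153 and 156 in BN and 119, 140.2, 126, 106 and 147 in LOU, arrays 1 to 5 in order. It gave 0.22 without BN array 3. The one with the largest difference read 12.0 on LOU array 1, which was not above background, and its difference was 0.44 without that array. Phosphorylase kinase, read through its muscle chains, was near 0 for Phka1 (0.02 and -0.04) and gave 0.20 (-0.13 to 0.53) for Phkg1.

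The pentose phosphate enzymes had positive differences in 4 of 4 probe sets, 3 at an unadjusted p under 0.05 and 0 past the adjusted test. The values of Taldo1, Pgd and, further on, Gpd2 were picked for display after they were seen. Taldo1, transaldolase, read 1412, 2083, 975, 1185 and 626 in BN and 881, 836, 492, 397 and 655 in LOU, arrays 1 to 5 in order. BN arrays 1 to 4 exceeded every LOU array, with means of 1256 ± 545 (SD, n = 5) in BN and 652 ± 210.4 (SD, n = 5) in LOU and a log2 difference of 0.90 (0.16 to 1.64, adjusted p = 0.281). Pgd, 6-phosphogluconate dehydrogenase, an NADPH-producing step, read 1712, 2312, 1069, 1444 and 600.4 in BN and 1231, 684, 619.8, 499 and 692 in LOU, arrays 1 to 5 in order. Its BN arrays 1, 2 and 4 exceeded every LOU array, and the difference was 0.87 (0.06 to 1.68, adjusted p = 0.338). Tkt, transketolase, read 5512, 6538, 2907, 3293 and 1320.0 in BN and 5860.3, 2432, 1396, 1260.3 and 2585 in LOU, arrays 1 to 5 in order. LOU array 1 lay with BN arrays 1 and 2, and the difference was 0.56 (-0.58 to 1.70), or 0.90 without LOU array 1. A dimmer Tkt probe set was above background on 4 BN arrays and 1 LOU array and gave 2.73 (0.21 to 5.25, adjusted p = 0.337), so both Tkt probe sets had the same sign and very different sizes.

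Gpd1, the cytosolic glycerol 3-phosphate dehydrogenase that makes glycerol phosphate in fat and liver, varied more between arrays than between strains. It read 8233, 10872, 3919.9, 5682 and 1218 in BN and 7937, 3174, 1166, 906 and 2961 in LOU, arrays 1 to 5 in order, a 12.0-fold span. BN arrays 1 and 2 and LOU array 1 were highest, and BN array 5 and LOU arrays 3 and 4 lowest. The strain difference was 0.99 (-0.58 to 2.56), and 0.48 (-1.29 to 2.24) in the second probe set. Without BN array 3 and LOU array 1 these were 1.49 and 0.98, and without LOU array 1 alone the second was 0.89. Gpd2, the mitochondrial partner that passes the electrons to the respiratory chain and is abundant in brown fat, read 588, 651, 271, 365 and 168 in BN and 583, 269.5, 149.8, 128 and 263 in LOU, arrays 1 to 5 in order. In these values the arrays fell in the same order as in those given for Gpd1. The 2 Gpd2 probe sets gave 0.60 (-0.46 to 1.66) and 0.38 (-1.34 to 2.09), or 0.92 and 0.69 without LOU array 1. Fbp2, the muscle fructose bisphosphatase, was above background on 5 of 10 arrays.

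Many members were high or low on some of the same arrays, which were picked after the Gpd1 and Gpd2 values were seen. Both genes stay in the counts that follow, so the counts are in part fixed by that choice. Of the 32 genes above background on all arrays, read through the probe set with the highest mean, 15 were highest on BN array 1 or 2, as were 20.9% of the 10001 such probe sets of the array. Of the same 32 genes, 23 were lowest on BN array 5 or LOU array 3 or 4, as were 27.2% of those probe sets, with 14 lowest on LOU array 4. The adipocyte marker mean on the centred log2 scale was 0.53, 0.79, -0.39, 0.31 and -1.13 on BN arrays 1 to 5 and 0.88, 0.42, -0.75, -0.81 and 0.13 on LOU arrays 1 to 5, and the strains differed by 0.05 in it. The brown adipocyte mean was highest on BN arrays 1 and 2, at 1.84 and 2.03. The smooth muscle mean was lowest on LOU array 1, where the adipocyte mean was highest, and highest on BN array 5, where that mean was lowest. The ratio of the 3′ to the 5′ Gapdh control, a sign of RNA quality, ran from 1.38 to 2.01 and was highest on LOU array 4, and its part in these values was not tested.

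**Figure D3:**
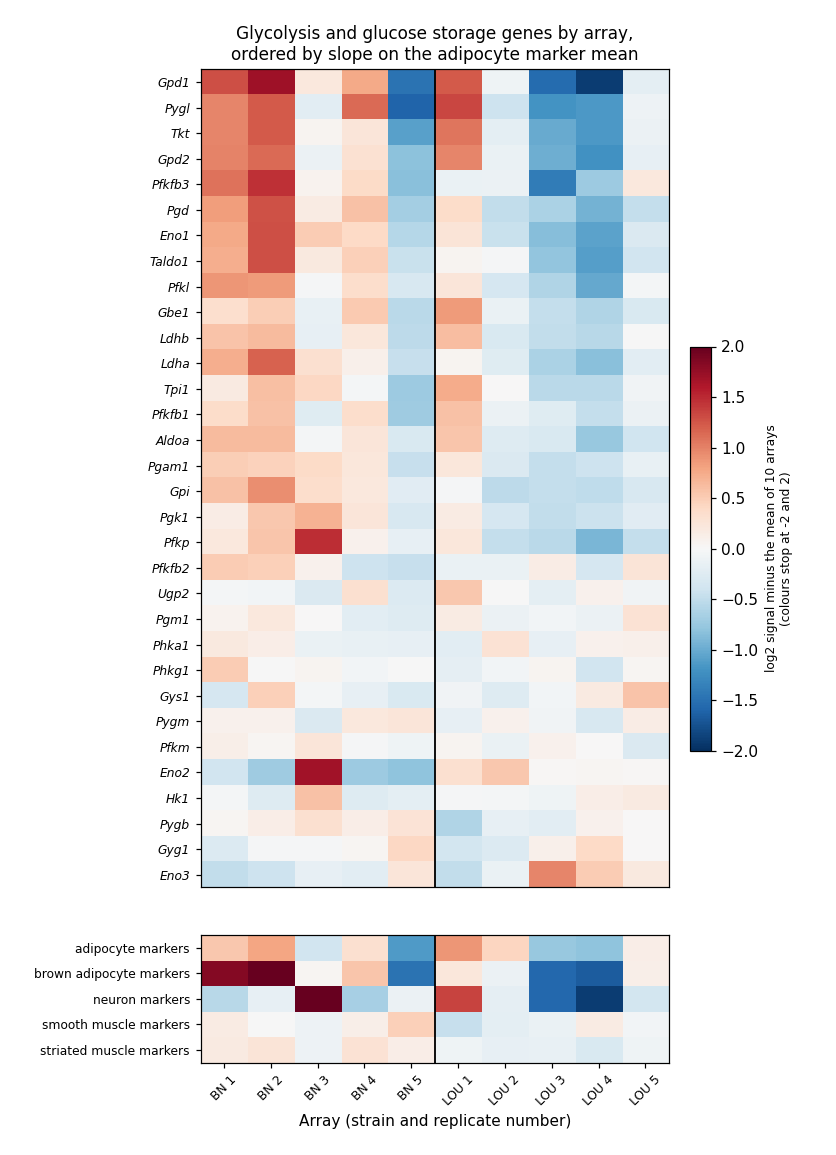
Log2 signal minus the gene's mean over the 10 arrays (colour, red high and blue low) for the 32 genes above background on every array, ordered by their slope on the adipocyte marker mean, with BN left and LOU right of the line; the lower panel shows marker means on the same scale. The genes at the top and the adipocyte rows are high on BN arrays 1 and 2 and low on BN array 5 and LOU arrays 3 and 4, and the neuron row is highest on BN array 3. Gpd1, Pygl, Tkt and Gpd2 are also high on LOU array 1, where the adipocyte row is highest.

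A fit with the strain and the adipocyte marker mean as terms, added after the data had been seen, gave each probe set a slope, the change in log2 signal for each doubling of the marker mean. Of the 50 probe sets, 15 from 13 genes rose with it (2.04% of all probe sets did) and 1, Eno3, fell (0.151% of all probe sets), by limma at an adjusted p under 0.05. The median slope was 0.32, against -0.02 for all probe sets. Among the slopes that passed, those of Gpd1 and Gpd2 included the steepest. Gpd1 gave 1.61 (95% interval 1.34 to 1.87, adjusted p = 0.000587) and 1.83 (95% interval 1.57 to 2.08, adjusted p = 0.000499) in its 2 probe sets. Gpd2 gave 1.72 and 1.07, Pygl gave 1.40 and the brighter Tkt probe set gave 1.13. Pfkfb3, Pgd, Eno1, Taldo1, Pfkl, Gbe1, Ldhb, Ldha and Pfkfb1 had slopes between 0.58 and 0.91. The slopes of Hk1 (-0.08), Pygb (-0.18) and Gpi (0.35) did not pass. The count of 15 became 7 when BN array 2 was left out, 5 when BN array 5 was, 8 when LOU array 1 was and 5 when BN array 3 and LOU array 1 both were. Leaving out any other single array gave 10 to 14. Both Gpd1 and both Gpd2 probe sets passed in all 10 fits without 1 array, as did the brighter Tkt probe set. The call for Eno3 (-0.52, adjusted p = 0.0480) was lost in each of those 10 fits.

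**Figure D4:**
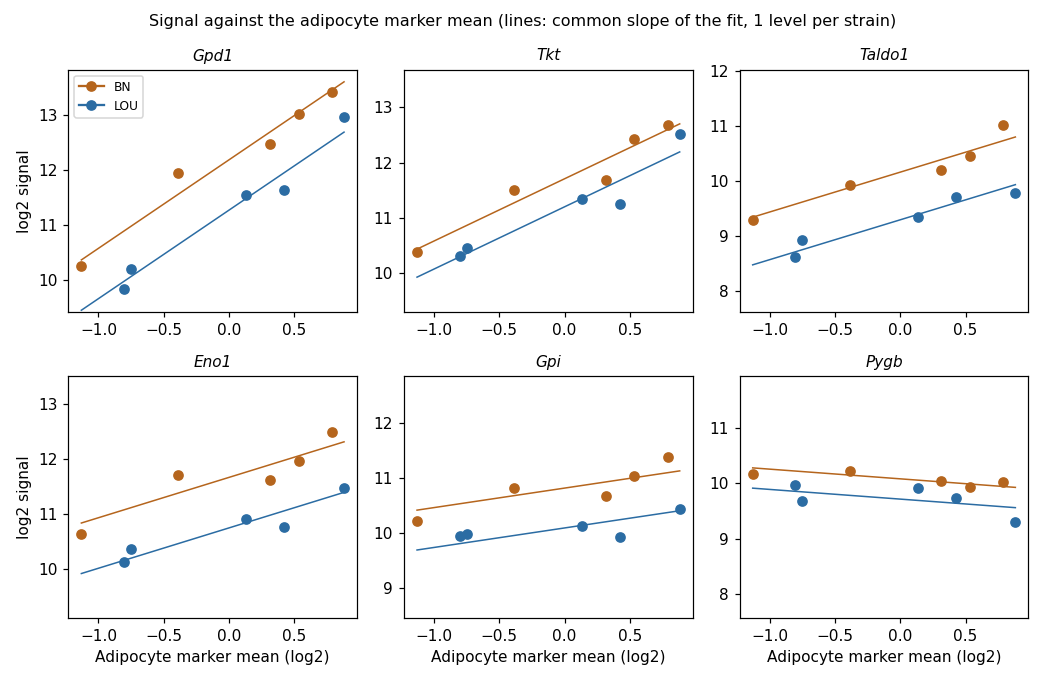
Log2 signal (y axis) against the adipocyte marker mean (x axis, log2) of each array for 6 genes, BN in brown and LOU in blue, with the fitted common slope at each strain's level as lines. Gpd1 and Tkt climb steeply, Taldo1 and Eno1 less so with the BN line above the LOU line, and Pygb shows no rise.

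With the adipocyte marker mean in the model, 4 of the 50 probe sets were higher in BN and 0 lower, where 0.561% of all probe sets were called higher and 0.807% lower. They were Taldo1 (0.87, adjusted p = 0.0166), Eno1 (0.92, adjusted p = 0.0315), the brighter Gpd1 probe set (0.91, adjusted p = 0.0315) and Pgd (0.83, adjusted p = 0.0494), in limma on the log2 scale. The dimmer Gpd1 probe set, also above background on all arrays, was not called, at 0.39 (adjusted p = 0.253) in the same limma fit. Its adjusted p-values stayed at 0.260 to 0.408 whichever single array was dropped. Gpi came close at 0.72 (adjusted p = 0.0547). Taldo1 was lost when BN array 5, LOU array 1 or LOU array 4 was left out, with adjusted p-values of 0.0273 to 0.0525 over the 10 fits without 1 array. Eno1 passed only without BN array 4 (0.0442 to 0.0800), Pgd only without LOU array 3 (0.0488 to 0.122) and Gpd1 only without BN array 3 or LOU array 1 (0.0426 to 0.0819). Calls were also gained: without BN array 4 Ldha was higher in BN (0.83, adjusted p = 0.0444), and without BN array 3 Eno2 was lower (-0.87, adjusted p = 0.0364). Without BN array 3 and LOU array 1 together, none of the 4 passed, with adjusted p-values of 0.0718 for Gpd1 and 0.108 to 0.173 for the others. The brown adipocyte and smooth muscle markers, with the strain means given above, were not in this model, and their part was not tested.

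For 8 pairs of a member and a marker gene, log2 signals centred within each strain were correlated over the 10 arrays and permuted within strain. Gpd2 followed Ucp1, the uncoupling protein of brown fat, with r = 0.95 (permutation adjusted p = 0.0016) and rho = 0.99 (permutation adjusted p = 0.00256), and r = 0.92 without BN array 5 and LOU array 4. Gpd1 followed Plin1, which coats fat droplets and stood in for Adipoq, with r = 0.93 (permutation adjusted p = 0.00532) and rho = 0.85 (permutation adjusted p = 0.0231), and r = 0.84 without the same 2 arrays. Gpd1 was not set against Ucp1, nor Gpd2 against Plin1. Brown fat and fat in general therefore cannot be told apart by these pairs. The muscle forms were set against Ckm, the muscle creatine kinase. Eno3 gave r = 0.68 (permutation p = 0.0398, adjusted p = 0.106), rho = 0.52 (adjusted p = 0.476) and r = 0.16 without BN array 5 and LOU array 3, so the value rests on those arrays. Pygm, Pgam2, Fbp2, Phkg1 and Pfkm gave r between -0.20 and 0.22 with Ckm, each with a permutation adjusted p of 0.776 or more. For Fbp2 the value turned from -0.20 to 0.75 without the same BN array 5 and LOU array 3, and for Pgam2, above background on no array, from -0.16 to 0.00778. Of 19 measured striated muscle markers, 9 were above background on all arrays and 5 on none. The list's mean ran from -0.10 to 0.30 over the BN arrays and from -0.30 to -0.08 over the LOU arrays.

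The other genes of the pathway were read from 6 lists that held 91 genes, of which 71 were measured by 88 probe sets, with 54 differences above 0 and a median of 0.08. Of the 88, 0 passed the adjusted test as higher in BN and 1 as lower, where 0.246% and 0.542% of all probe sets did, so the count is near that of the whole array. That gene was Galt, galactose-1-phosphate uridylyltransferase, which feeds galactose into the glucose pool. Its signal was 254, 271, 244, 286 and 299.7 on BN arrays 1 to 5 and 396, 403, 426, 417 and 417 on LOU arrays 1 to 5. The strains did not overlap, and the means were 271 ± 22.4 (SD, n = 5) in BN and 412 ± 12.2 (SD, n = 5) in LOU, with a log2 difference of -0.61 (-0.83 to -0.38, adjusted p = 0.0274). The call stood without BN array 5 or LOU array 1 and was lost without any of the other 8 arrays, with adjusted p-values of 0.0309 to 0.0925. In the same list, and named after its values were seen, Akr1b1, the aldose reductase that turns glucose into sorbitol, read 905, 679, 991, 703 and 974 in BN and 1144, 1203, 1559, 1251 and 1074 in LOU, arrays 1 to 5 in order. Its strains did not overlap either (2.77% of all probe sets were lower in BN without overlap), and the difference was -0.56 (-0.91 to -0.20, adjusted p = 0.166).

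The remaining 5 lists had no call, and the genes with the smallest p are given. Among pyruvate dehydrogenase genes, 12 of 15 probe sets had a positive difference, led by Mpc2, a mitochondrial pyruvate carrier subunit (0.88, 0.30 to 1.46, adjusted p = 0.178), and Pdk1, a kinase that blocks pyruvate dehydrogenase (0.94, 0.27 to 1.61, adjusted p = 0.210). A second, brighter Pdk1 probe set gave -0.06 (-1.22 to 1.11, adjusted p = 0.975). Among hypoxia response genes, 13 of 22 did, led by Ndrg1 (0.49, adjusted p = 0.160) and Epas1, a hypoxia-inducible factor chain (0.42, adjusted p = 0.279, and 0.24 in a dimmer probe set). Of the glucose and lactate transporters, 6 of 10 did, with Slc2a3, a glucose transporter, at 0.53 (adjusted p = 0.335, and -0.03 in a dimmer probe set) and Slc16a7, a monocarboxylate transporter, at -0.66 (adjusted p = 0.345). Other glycogen genes had 10 of 14 above 0, with Stbd1, a glycogen-binding protein, at -0.45 (adjusted p = 0.276) and Phkb, a phosphorylase kinase chain, at 0.34 (adjusted p = 0.394). Other glycolytic and gluconeogenic enzymes had 8 of 16 above 0, with Pck2 at -0.38 (adjusted p = 0.567) in 1 probe set and -0.07 (adjusted p = 0.860) in the brighter one, and Bpgm at -0.26 (adjusted p = 0.623).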

How the data were processed

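RNA of 10 abdominal aorta samples, 5 for each of 2 rat strains, was measured on Affymetrix arrays. The value table deposited by the authors holds intensity values on a linear scale from 0 to 22219.9, with a 2% trimmed mean of 200.05 to 200.06 on each array. Per the submitters' processing notes RMA was used, whose usual output is on a log scale, so how these values were made is not settled here. The log2 of the signal was taken, with 4 values of 0 set to 0.1. limma 3.58.1 in R 4.3.3 (lmFit, eBayes) compared BN minus LOU over 15866 probe sets, without 57 control probe sets, with p-values adjusted by Benjamini-Hochberg and calls made under 0.05. Control probe sets of Gapdh and Hk1 were compared by an exact permutation test over 252 splits (smallest possible p 0.00794). Correlations used 100000 permutations within strain. Python 3.11.15, pandas 2.3.3, scipy 1.17.1 and matplotlib 3.10.9 were used. The fit was tested on simulated arrays with 200 of 15866 probe sets changed, in 10 runs, with recovered shares given in the Results. The number of arrays limits the precision.

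Symbols came from the platform annotation, updated through RefSeq: 12783 probe sets had 1 symbol (12748 by gene identifier, 2 by accession, 33 as listed), 312 several and 2771 none. No gene was named from a probe set with several, which left out 5 probe sets of Gapdh, Pkm and Pgd. Promoters came from RefSeq on GRCr8.

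The members and all lists were chosen with earlier results of these data known. Values on every array are given for members past the test or without overlap, for the gene with the brightest probe set of each role group and for the paired isoforms. For a pathway list, genes past the test or else up to 2 with the smallest p are named. Replicate numbers did not pair the arrays: deviations of same-numbered arrays correlated at -0.05 to 0.01, and 0 arrays correlated best with their own number. Alternatives were a floor of 32, a pseudocount of 16, a filter on the dimmest 40%, quantile normalization, median centring, a variance trend, array weights, the replicate block, 1 probe set per gene and leaving out arrays.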

Additional observations from a re-analysis of the deposited data

Results flagged for a closer look

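In 8 of 100 groups of 5 arrays (50 probe sets in each strain), 1 array lay far from the other 4, where chance flags about 1 group in 20. On BN array 3, the array with the high neuron markers, Hk1 read 530.7 against 294.9 to 342.1 on the other BN arrays, and Eno2, the neuronal enolase, read 251.2 against 44.8 to 60.2. The brightest Pygm probe set was low on the same array, at 107.7 against 140.2 to 155.8. On LOU array 1 a second Pygm probe set read 12.0 against 65.3 to 101.7, below background, and the dimmer Tkt probe set read 96.2 against 4.5 to 9.5. Aldoc read 17.4 on LOU array 3 against 81.0 to 150.4 on the other LOU arrays. Pgam1 read 1898.4 on BN array 5 against 3051.9 to 3665.3, on the BN array with the lowest adipocyte marker mean. Phkg1, a phosphorylase kinase chain, read 108.1 on BN array 1 against 73.2 to 79.1.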

How the results depend on the processing

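Under every alternative run without a covariate, including leaving out each array, 0 member probe sets were higher and 0 lower in BN at an adjusted p under 0.05 in limma, and the median difference over the members ran from 0.14 to 0.40. With the adipocyte marker mean as a covariate, 4 were higher. The probe sets rising with that mean numbered 5 without BN array 3 and LOU array 1, and 5 to 14 when 1 array was left out. The falling probe set, Eno3, was lost under median centring, quantile normalization and without those 2 arrays (0 in each), and 0 to 0 were called without 1 array. Of 1027 values of single member probe sets under the alternatives, 990 kept their direction and side of the threshold, 33 reversed (22 of them without 1 array) and 4 passed the test. Reversed values were Pfkfb2 0.0265 and Phka1 0.00655 with median centring, Pfkfb2 0.0467 and Phka1 0.00466 with quantile normalization, Phka1 -0.0361 with array weights and Pfkfb2 0.00447 with the covariate. The lowest difference of the members, -0.46 in a Pfkfb2 probe set above background on 1 array, became 0.00767 with a floor of 32. Without BN array 3 and LOU array 1, Pgk1 gave 0.00716, Ugp2 0.0315, Gyg1 -0.0187 and Phka1 -0.0251. Without 1 array, ranges crossed 0 for Gyg1 (-0.0404 to 0.16), Pfkfb2 (-0.0424 to 0.20, -0.29 to 0.17 and -0.0754 to 0.24), Pfkfb3 (-0.0354 to 0.35), Pgk1 (-0.74 to 0.34), Pgm1 (-0.0806 to 0.22) and Phka1 (-0.0641 to 0.13 and -0.10 to 0.0211). Of 8 relations 2 reversed: without the 2 arrays farthest in Ckm, r was 0.00778 for Pgam2 and 0.75 for Fbp2. The cause was not tested.

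With the replicate block, 0 members were higher and 0 lower, and 23 of all probe sets were called against 125 without it. The calls over all probe sets were 253 without the dimmest 40%, 242 with a variance trend, 204 with the pseudocount, 186 with the floor, 75 without BN array 3 and LOU array 1, and 63 to 127 without 1 array. Galt was lost with median centring (adjusted p 0.0565), with the replicate block (0.203) and without BN array 3 and LOU array 1 (0.0960). Members near background, such as the dimmer Tkt and Pfkfb2 probe sets, have no firm size.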
